A study of Mus musculus with 10 samples.

Results

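Solute carriers are membrane proteins, named by the symbol Slc and a family number, that move nutrients, ions, metals and metabolites across the cell surface and the membranes of organelles. The genes described here were chosen by symbol and by measured level. Of 371 protein-coding genes with such a symbol in GENCODE M21, 338 were listed in the files, and 5 of these (Slc2a1, Slc2a3, Slc40a1, Slc11a1 and Slc11a2, carriers of glucose and iron) were set aside. A gene was kept when its principal transcript reached an RPKM (reads per kilobase of transcript, scaled to library depth) of at least 1 in at least 2 of the 10 libraries, which left 175 members among 13004 genes tested. Another 158 were listed below that minimum, 1 of them at 0 in all 10 libraries, and 33 were not listed. In 139 members every library reached the minimum. Slc15a2, Slc22a20 and Slc39a4 reached it only through the 120 h group described below, so that they had to differ there. The second highest RPKM, which decides membership, was 1.01 for Slc2a7, 1.14 for Slc30a2 and 1.15 for Slc25a47 just inside, and 0.944 for Slc38a6, 0.904 for Slc12a5 and 0.863 for Slc36a3 just outside. Among the members, 4 carry the symbol without being carriers. They are the scaffold proteins Slc9a3r1 and Slc9a3r2, the adaptor protein Slc4a1ap, and Slc7a6os, a neighbour of Slc7a6.

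The libraries came from ER-Hoxa9-Lys-GFP cells, a cultured C57BL/6 mouse line whose Hoxa9, a homeobox factor that keeps myeloid progenitors immature, is fused to the estrogen receptor and so depends on estradiol (E2). Every group was cultured in RPMI containing fetal bovine serum and SCF (stem cell factor) conditioned medium. Where E2 was withdrawn, the cells were washed in PBS and moved to medium without it. There were 5 groups of 2 libraries: cells kept in E2 (untreated), cells without E2 for 24 h and then with it for 96 h, for 40 h and then with it for 80 h, for 72 h and then with it for 48 h, and cells without E2 for 120 h. They are called the untreated, 24 h, 40 h, 72 h and 120 h groups, so that a time names the length of withdrawal and by the labels only the 120 h group lacked E2 when RNA was taken. The series' design text speaks of 4 durations of withdrawal with E2 given again, of which 3 were analysed here, and the label of the 120 h group names no return of E2. Whether the line is 1 clone, and whether replicates were separate cultures, is not given in the sources used here, so the p-values speak for the scatter of these libraries alone. The untreated libraries are the reference in 4 comparisons, whose values are given side by side. Groups were separate treatments and not successive samplings, so an earlier or later library below is one of shorter or longer withdrawal.

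As background, amino acid carriers set how fast a cell imports leucine, glutamine and cystine, and several of them work in pairs with the heavy chain Slc3a2. Carriers of the Slc25 family sit in the inner membrane of mitochondria and exchange nucleotides, phosphate, citrate and other metabolites, and those of the Slc35 family bring nucleotide sugars into the Golgi and the endoplasmic reticulum for glycosylation. Growing progenitors rely on surface carriers of amino acids, folate and nucleosides, while mature phagocytes are known for carriers of lysosomes and granules.

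The denominators recovered from the RPKM, searched within a preset range, were 173621918 to 204387309 reads a library. With them, a single read added 0.00245 to 0.00288 RPKM for a transcript of 2 kb. They are estimates and not a reported depth, and what the authors counted in them is not known here. Progenitor markers, 7 of 7 lower at 120 h, summed to 1575.9 and 1548.8 RPKM in untreated cells and to 114 and 81.6 at 120 h. Neutrophil markers, 9 of 9 higher at 120 h, summed to 36.2 and 40.5 and to 24267 and 23735, and monocyte markers, 7 of 7 tested and higher, to 6.31 and 6.14 and to 1358 and 1331. None of 5 erythroid and 4 stromal markers listed reached the minimum, and 4 of 4 lymphoid markers tested were lower at 120 h. The lists also differed from untreated cells in groups of shorter withdrawal. At 72 h 5 of 7 progenitor markers were lower (633.7 and 673.9 RPKM in sum), 9 of 9 neutrophil markers higher (423 and 667), 5 of 7 monocyte markers higher (646 and 709) and 4 of 4 lymphoid markers lower. At 40 h 4 of 7 monocyte markers were higher (52.6 and 39.8) and 4 of 4 lymphoid markers lower, from 49.7 and 45.98 RPKM to 12.2 and 15.3. In such bulk libraries fewer cells of a type and less RNA per cell cannot be told apart. Replicates differed most at 120 h, where the SD over genes of their log2 difference was 0.4, against 0.141 in untreated cells and 0.239 at 72 h.

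After 120 h without E2, most of the solute carriers had changed, and more were lower than higher as deposited, an order that turned with median-of-ratios scaling. Against untreated cells 64 of the 175 members were higher and 92 lower at an adjusted p under 0.05 (limma, Benjamini-Hochberg over 13004 genes), where 27.5% of all genes tested were higher and 52.7% lower. Among the members these counts made 36.6% and 52.6%. The 175 members include Slc15a2, Slc22a20 and Slc39a4, whose difference at 120 h was fixed by the minimum. No count was taken without them. At least 2-fold, 31 of the 175 members rose and 39 fell, where 1867 rose and 3287 fell of all 13004 genes. The median log2 fold change of RPKM + 1 was -0.27 for the members and -0.36 for all genes. The all-gene median was -0.0015 after median-of-ratios scaling and -0.18 after quantile normalization, which gave 76 members higher and 62 lower, and 70 higher and 78 lower. Over all genes the split was 3582 higher and 6858 lower as deposited and 5125 and 5016 after median-of-ratios scaling. Whether a change at 120 h was called could depend on the scaling, and the size of this shift in the median was no cutoff for that. Slc39a7, at -0.58, lost its call after median-of-ratios scaling (-0.14). Slc39a1, at 0.21, kept its call with both other scalings.

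The shorter withdrawals moved fewer members. At 72 h 56 members were higher (32.0%) and 43 lower (24.6%), where 21.6% of all genes were higher and 22.3% lower, and the median was 0.10 beside 0.02 for all genes. At 40 h 3 were higher and 7 lower, where the background was 0.93% and 3.35%. At 24 h limma called 0 members, where the background was 0% higher and 0% lower. At an unadjusted p under 0.05 the 24 h group had 2 members (Slc45a4 and Slc7a11) and 365 of all genes, and limma voom, run on the recovered reads, called 0 members as well (152 at 120 h and 103 at 72 h). Each of the 10 calls at 40 h was lost without either untreated replicate, and leaving out 40 h replicate 1 left 2 calls and leaving out 40 h replicate 2 left 5. Without either 120 h library, 35 members were called at 40 h.

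Between successive groups, 1 member was higher and 0 lower at 40 h than at 24 h (background 0.169% and 0.115%). At 72 h 40 were higher and 38 lower than at 40 h (background 13.9% and 13.8%), a total of 78 that became 43 or 44 on leaving out 40 h replicate 1 or 2, and 42 on leaving out 72 h replicate 2. At 120 h 52 were higher and 89 lower than at 72 h (background 26.4% and 51%). That last split was 70 and 63 after median-of-ratios scaling and 59 and 73 after quantile normalization, which moved the all-gene median from -0.32 to 0.02 and -0.15.

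**Figure D1:**
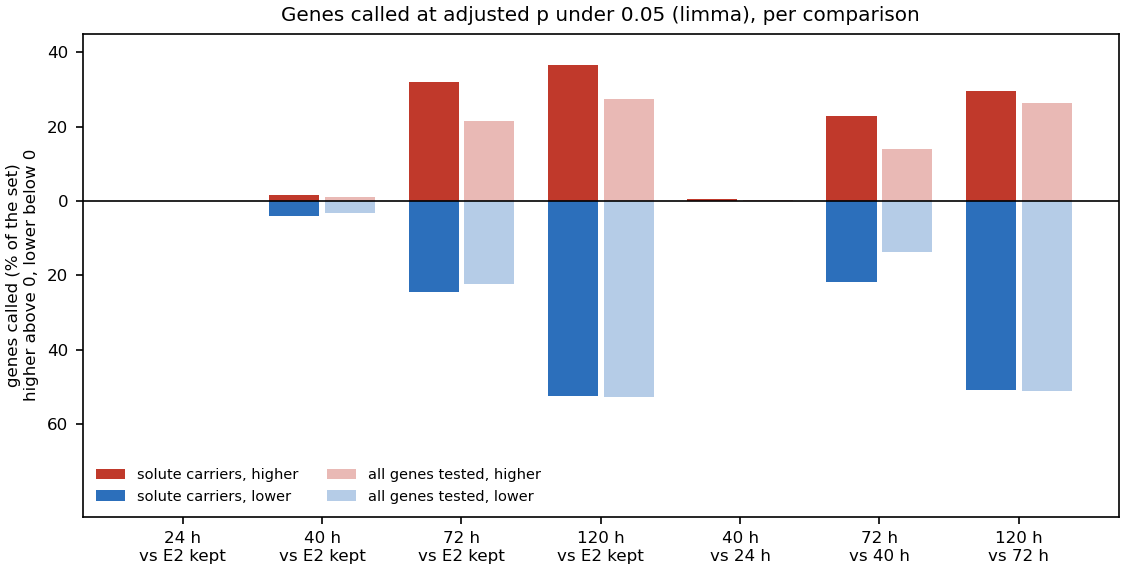
Share of genes called higher or lower by limma (adjusted p under 0.05) in each of the 7 comparisons, in percent of the 175 solute carrier members (dark bars) and of the 13004 genes tested (pale bars), drawn up from 0 for higher and down from 0 for lower. The members stand at 36.6% higher and 52.6% lower at 120 h against untreated cells, and at 32.0% and 24.6% at 72 h.

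Promoters are shown to set the sequence upstream of members that moved together, or apart, beside their values. RefSeq windows (GRCm38.p6) matched 137 of the 175 members by symbol, with 189 windows of 250 bases before a start site. Motifs were searched on both strands by their letters. CACGTG, the E-box, was in 22 of the 189 windows (11.6%) and in 6.02% of all 32851 windows of the table. The latter belong to 27025 genes, expressed in these cells or not, whereas members were chosen as expressed. These shares are thus not of like sets. Of 55 windows of members at least 2-fold lower at 120 h (32 genes), 7 held it (12.7%), and of 31 windows of members at least 2-fold higher (24 genes), 4 did (12.9%). TGACGTCA, the cyclic AMP response element, was in 1.06% of members' windows and 1.55% of all, and TTGCGCAA, a C/EBP palindrome, in 0% and 0.164%. TTGCATCA, a C/EBP-ATF composite, was in 1.59% and 0.791%, and GAGGAAGT, a PU.1 motif, in 2.12% and 2.44%. The composite was in 1 of the 55 windows of lower members and 0 of the 31 windows of higher ones. The PU.1 letters were in 0 of the 55 and 1 of the 31. A match is a run of letters and not a bound site, and the absence of one says only that these letters are not in the window.

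The sequences below run 5′ to 3′ on the strand of the gene and end at the base before the start site, with the motif in capitals. Slc16a1 (chr3:104638414-104638663, plus strand), Slc25a1 (chr16:17928220-17928469, minus strand) and Slc25a33 (chr4:149774268-149774517, minus strand) hold an E-box and fell at least 2-fold at 120 h. Slc22a4 (chr11:54028105-54028354, minus strand) and Slc35a5 (chr16:45158674-45158923, minus strand) hold the same letters and rose at least 2-fold. Slc7a11 (chr3:50443614-50443863, minus strand) holds the C/EBP-ATF composite and was higher at 40 h. Slc22a15 (chr3:101924454-101924703, minus strand) holds the PU.1 letters and rose at 120 h.
Slc16a1: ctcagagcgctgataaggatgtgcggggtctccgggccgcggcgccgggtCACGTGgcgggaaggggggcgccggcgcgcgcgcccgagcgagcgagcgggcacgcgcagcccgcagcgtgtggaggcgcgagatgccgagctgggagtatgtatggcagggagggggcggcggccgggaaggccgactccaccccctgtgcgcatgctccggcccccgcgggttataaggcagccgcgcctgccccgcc
Slc25a1: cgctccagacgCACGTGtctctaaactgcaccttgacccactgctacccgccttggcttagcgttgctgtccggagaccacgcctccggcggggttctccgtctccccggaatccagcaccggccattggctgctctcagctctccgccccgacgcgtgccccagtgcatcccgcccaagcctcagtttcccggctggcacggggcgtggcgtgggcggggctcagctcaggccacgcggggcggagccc
Slc25a33: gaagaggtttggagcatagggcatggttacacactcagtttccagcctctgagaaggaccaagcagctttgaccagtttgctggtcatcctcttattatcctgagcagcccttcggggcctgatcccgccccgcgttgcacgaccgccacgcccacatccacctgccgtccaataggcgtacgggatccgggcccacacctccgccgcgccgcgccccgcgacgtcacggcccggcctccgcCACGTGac
Slc22a4: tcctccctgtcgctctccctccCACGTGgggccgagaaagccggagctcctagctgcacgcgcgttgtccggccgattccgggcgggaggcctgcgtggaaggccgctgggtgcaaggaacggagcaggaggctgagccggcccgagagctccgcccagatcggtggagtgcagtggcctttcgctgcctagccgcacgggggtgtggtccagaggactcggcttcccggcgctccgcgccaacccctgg
Slc35a5: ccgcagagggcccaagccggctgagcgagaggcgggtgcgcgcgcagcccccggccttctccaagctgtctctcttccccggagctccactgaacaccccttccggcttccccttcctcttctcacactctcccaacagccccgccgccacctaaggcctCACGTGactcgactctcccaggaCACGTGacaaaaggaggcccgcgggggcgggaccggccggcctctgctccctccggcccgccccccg
Slc7a11: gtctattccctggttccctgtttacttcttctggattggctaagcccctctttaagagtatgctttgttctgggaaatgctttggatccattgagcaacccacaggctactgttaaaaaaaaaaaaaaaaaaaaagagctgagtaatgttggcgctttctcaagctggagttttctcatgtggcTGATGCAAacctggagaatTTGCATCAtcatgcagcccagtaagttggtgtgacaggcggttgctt
Slc22a15: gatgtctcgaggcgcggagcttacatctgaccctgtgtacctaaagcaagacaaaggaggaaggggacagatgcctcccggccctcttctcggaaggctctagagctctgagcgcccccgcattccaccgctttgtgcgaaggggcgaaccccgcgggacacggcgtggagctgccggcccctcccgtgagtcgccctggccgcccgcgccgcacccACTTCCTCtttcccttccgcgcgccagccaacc

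The 7 members called lower in the 40 h group, where E2 had been back for 80 h, included carriers of sugars and amines. As stated above, the calls at 40 h were each lost on leaving out either untreated replicate. Slc45a3, a proton-coupled sugar carrier (chr1:131962967-131982969, plus strand), held 46.2 and 49.4 RPKM in untreated cells, 41.3 and 43.4 at 24 h, 27.8 and 31.8 at 40 h, 2.13 and 1.92 at 72 h and 0.285 and 0.204 at 120 h. The groups from 40 h on lie below every earlier library and do not overlap. It fell by 0.67 on the log2 scale at 40 h (SE 0.09, adjusted p = 0.00818), by 4.01 at 72 h and by 5.29 at 120 h (SE 0.09, adjusted p = 6.79e-09), the lowest value of any member. Of the 31-base windows of its transcript, 11.1% are shared with Gm29103, so part of its reads is uncertain.

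Slc18a2, the vesicular carrier that loads histamine and serotonin into granules (chr19:59260896-59296012, plus strand), held 56.4 and 59.8 RPKM in untreated cells, 49.2 and 53.4 at 24 h, 32.6 and 38.7 at 40 h, 3.67 and 3.45 at 72 h and 2.32 and 2.54 at 120 h. Its 40 h libraries are below all 4 untreated and 24 h libraries, and its 72 h libraries are far below those at 40 h. The log2 fold change was -0.69 (SE 0.10, adjusted p = 0.00883) at 40 h, -3.69 at 72 h and -4.11 (SE 0.10, adjusted p = 1.33e-08) at 120 h. Slc22a3, a low-affinity carrier of histamine and other organic cations (chr17:12418960-12507704, minus strand), held 23.8 and 25.7 RPKM in untreated cells, 19.1 and 22.5 at 24 h, 11.8 and 14.02 at 40 h, 0.719 and 0.673 at 72 h and 0.008 and 0.01 at 120 h. It fell by 0.89, 3.92 and 4.67 at 40, 72 and 120 h. Slc18a1, the other vesicular monoamine carrier, went from 10.7 and 9.71 RPKM in untreated cells to 0.963 and 1.06 at 72 h and 0.982 and 1.09 at 120 h, a fall by 2.46 (SE 0.10, adjusted p = 1.87e-07). Of the markers of mast cells, basophils and eosinophils, Fcer1a was under the minimum and 5 were tested, of which 3 were higher and 2 lower at both 72 h and 120 h. The lower ones were Mcpt8 and Cpa3. Mcpt8, a basophil protease, went from 45.4 and 52.4 RPKM to 10.1 and 12.2 at 72 h and 0.687 and 0.899 at 120 h. Cpa3 went from 128 and 123 RPKM to 34.2 and 28.3 at 72 h and 13.3 and 9.11 at 120 h. Among the higher ones Prg2, an eosinophil granule protein, went from 12.9 and 36.3 RPKM to 234 and 173 at 40 h, 1484 and 1306 at 72 h and 471 and 250.5 at 120 h. The summed level of the list was 186 and 212 in untreated cells, 382 and 315 at 40 h, 1532 and 1352 at 72 h and 490.1 and 264 at 120 h. Prg2 made up most of that sum from 40 h on, so the sum does not describe the other markers. The part of these markers in the falls of the amine carriers was not tested.

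Slc2a5, the fructose carrier (chr4:150119283-150144169, plus strand), followed the same course, with 13.8 and 13.8 RPKM in untreated cells, 13.1 and 12.1 at 24 h, 8.43 and 8.73 at 40 h, 0.913 and 0.929 at 72 h and 0.069 and 0.036 at 120 h. It fell by 0.63 (SE 0.08, adjusted p = 0.00519), 2.94 and 3.81 at 40, 72 and 120 h. Its neighbour Slc2a7, a hexose carrier within 50 kb, was near the minimum in untreated cells (1.01 and 0.988 RPKM) and fell by 0.99 at 120 h. Slc9a9, a sodium and proton exchanger of endosomes, went from 20.95 and 19.8 to 10.5 and 12.3, 1.33 and 1.56 and 1.99 and 3.43 RPKM at 40, 72 and 120 h. Its fall by 3.13 at 72 h and 2.56 at 120 h held in every fit run, whereas that at 40 h (-0.79 (SE 0.18, adjusted p = 0.0483)) was lost with either other scaling. Slc25a23, a calcium-regulated carrier of ATP-Mg and phosphate in mitochondria, went from 28.4 and 28.9 to 19.6 and 22.4, 7.34 and 7.08 and 4.603 and 3.82 RPKM. The change at 40 h was -0.43 (SE 0.10, adjusted p = 0.0492), lost with either other scaling, and the falls at 72 and 120 h were by 1.85 and 2.51.

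The 3 members higher at 40 h differed from each other in the groups of longer withdrawal. Slc7a11, the cystine and glutamate exchanger (chr3:49892526-50443614, minus strand), held 6.12 and 6.504 RPKM in untreated cells, 7.55 and 8.24 at 24 h, 10.8 and 13.3 at 40 h, 8.23 and 7.04 at 72 h and 7.07 and 8.23 at 120 h. It is highest at 40 h, with a log2 fold change of 0.83 (SE 0.12, adjusted p = 0.0112), and all later libraries lie above the untreated ones but below those at 40 h. At 120 h its value was 0.24 (SE 0.12, adjusted p = 0.101), and 0.63 with a call after median-of-ratios scaling. Slc44a1, a choline carrier, held 8.08 and 7.499 RPKM in untreated cells, 9.05 and 9.197 at 24 h, 12.4 and 11.9 at 40 h, 15.2 and 16.7 at 72 h and 20.4 and 23.7 at 120 h, and its groups do not overlap. It rose by 0.59 (SE 0.09, adjusted p = 0.0138) at 40 h, 0.95 at 72 h and 1.39 at 120 h.

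Slc22a4, a carrier of ergothioneine (chr11:53983123-54028090, minus strand), held 1.003 and 0.982 RPKM in untreated cells, 1.22 and 1.27 at 24 h, 2.79 and 2.25 at 40 h, 8.49 and 9.09 at 72 h and 6.59 and 6.56 at 120 h. It rose by 0.82 (SE 0.09, adjusted p = 0.00458) at 40 h, 2.30 at 72 h and 1.93 at 120 h, and it was the 1 member called at 40 h against 24 h, by 0.64 (SE 0.09, adjusted p = 0.0463). That last call was lost without either untreated, 24 h, 40 h or 72 h replicate, while without either 120 h library it stayed among 8 members called. Its neighbour Slc22a21, a carnitine carrier 2790 bases away, was at 1.24 and 1.32 RPKM in untreated cells and 0.484 and 0.841 at 120 h, with a log2 fold change of -0.46 (SE 0.14, adjusted p = 0.0129), a call lost with either other scaling and without untreated replicate 2 or 120 h replicate 1. About 33.2% of the 31-base windows of Slc22a21 are shared with Slc22a5, so its reads are uncertain.

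**Figure D2:**
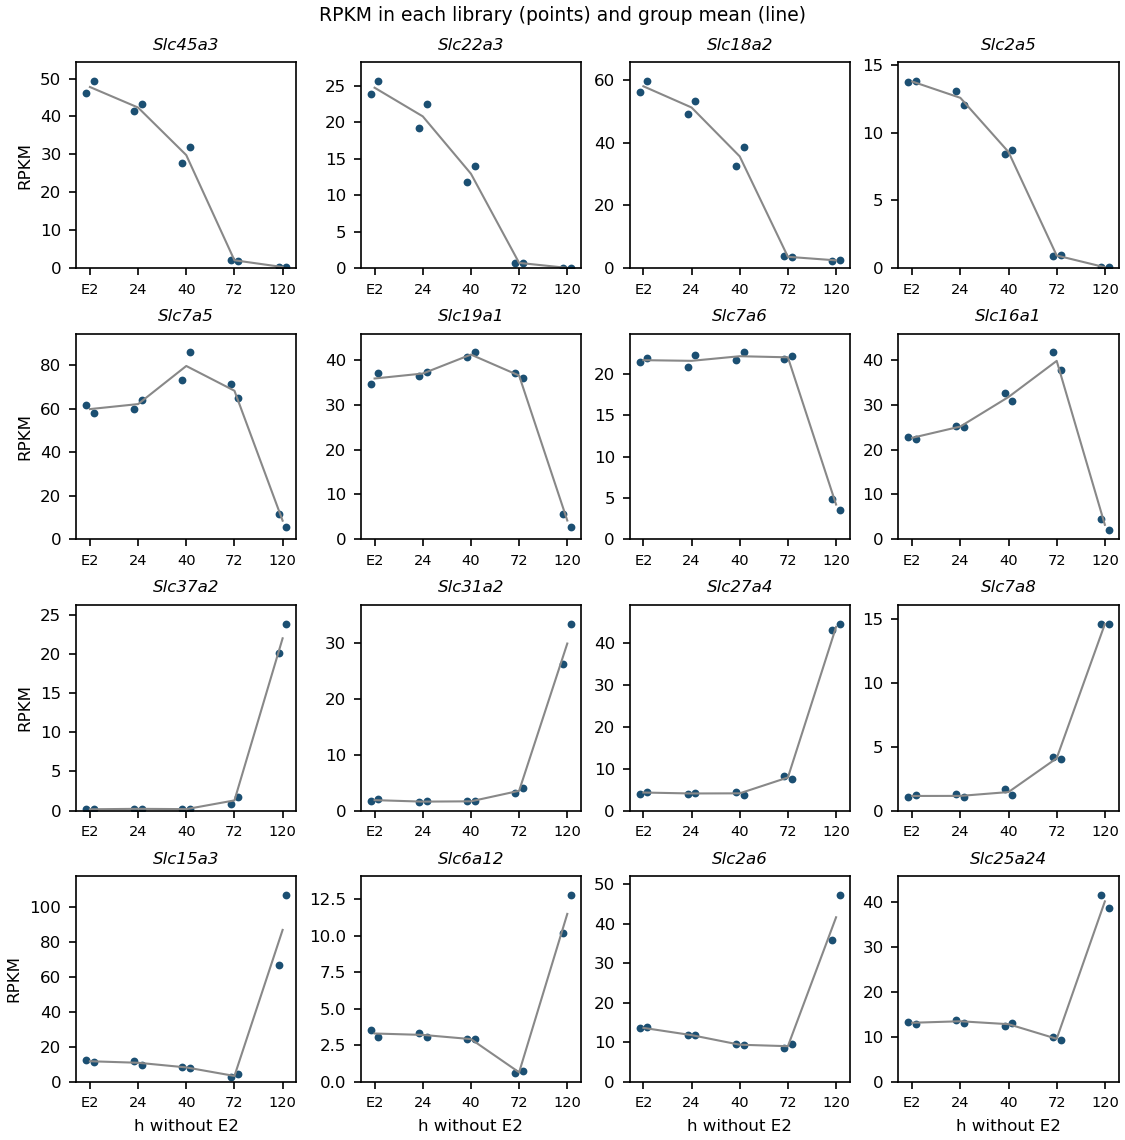
RPKM (vertical axis, linear, each panel from 0) in each of the 10 libraries (points) for 16 members, 1 panel per gene, with the groups evenly spaced along the horizontal axis by hours without E2 (E2, untreated cells) and a line through the group means. Slc45a3 runs from 46.2 and 49.4 in untreated cells to 0.285 and 0.204 at 120 h, and Slc37a2 from 0.182 and 0.139 to 20.2 and 23.9.

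Substrate classes went by Slc family number alone, so a class can hold members of another substrate. Among the 23 members of the amino acid class, Slc7a6os included, 6 were higher and 13 lower at 120 h. These made 26.1% and 56.5%, near the 27.5% and 52.7% of all genes, and the median was -0.46 (-0.16 after median-of-ratios scaling). At 72 h 6 were higher and 8 lower (26.1% and 34.8%, where all genes gave 21.6% and 22.3%). Slc7a5, the large carrier of leucine and other neutral amino acids at the surface (chr8:121881150-121907694, minus strand), held 61.4 and 58.1 RPKM in untreated cells, 60.03 and 64.1 at 24 h, 73.3 and 85.9 at 40 h, 71.3 and 65.1 at 72 h and 11.5 and 5.57 at 120 h. The first 8 libraries lie between 58.1 and 85.9 and both 120 h libraries far below them, a fall by 2.75 (SE 0.25, adjusted p = 1.64e-05). Its heavy chain Slc3a2 held 84.4 and 80.5 RPKM in untreated cells, 87.6 and 88.2 at 24 h, 94.2 and 103 at 40 h, 67.8 and 64.8 at 72 h and 45.9 and 44.2 at 120 h, and fell by 0.86 (SE 0.08, adjusted p = 1.6e-05). Its call at 72 h, -0.31 (SE 0.08, adjusted p = 0.0131), was lost without either untreated replicate or 72 h replicate 2. The difference between the falls of the pair was not tested.

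Other surface importers of arginine and glutamine (Slc7a6, Slc7a1, Slc38a1 and Slc1a5) were not lower at 72 h and fell at 120 h. Slc7a6, which exchanges arginine for glutamine, held 21.4 and 21.9 RPKM in untreated cells, 20.8 and 22.3 at 24 h, 21.6 and 22.6 at 40 h, 21.8 and 22.2 at 72 h and 4.89 and 3.495 at 120 h, a fall by 2.14 (SE 0.12, adjusted p = 1.05e-06). Slc7a1, the main arginine importer, went from 28.1 and 27.7 RPKM in untreated cells to 37.9 and 34.8 at 72 h and 9.85 and 5.52 at 120 h, a fall by 1.78. Slc38a1, a glutamine importer, fell by 1.00 from 32.4 and 34.02 to 17.8 and 14.5. Slc1a5, another glutamine carrier (chr7:16781340-16798274, plus strand), was highest at 72 h and lowest at 120 h. It held 33.9 and 35.2 RPKM in untreated cells, 36.6 and 40.7 at 24 h, 43.1 and 47.7 at 40 h, 54.1 and 63.8 at 72 h and 21.4 and 13.3 at 120 h. Its rise at 72 h, 0.75 (SE 0.19, adjusted p = 0.0136), was lost without either untreated replicate or 72 h replicate 2, and its fall at 120 h was by 0.99. Slc38a2, the neighbour of Slc38a1 and a carrier induced by amino acid shortage, held 54.1 and 55.1 RPKM in untreated cells, 52.9 and 57.3 at 24 h, 56.4 and 67.4 at 40 h, 78.5 and 83.1 at 72 h and 44.97 and 48.7 at 120 h. It rose by 0.56 (SE 0.10, adjusted p = 0.00278) at 72 h, and at 120 h the value was -0.22 (SE 0.10, adjusted p = 0.0742), which turned to 0.22 after median-of-ratios scaling.

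Slc1a4, Slc6a9 and Slc7a7 were already lower at 72 h. Slc1a4, a carrier of alanine and serine, held 8.33 and 7.19 RPKM in untreated cells, 7.61 and 7.46 at 24 h, 6.95 and 10.1 at 40 h, 1.96 and 1.79 at 72 h and 0.156 and 0.073 at 120 h. Its groups at 72 h and 120 h are below every earlier library, and it fell by 1.61 and 2.97 (SE 0.15, adjusted p = 6.67e-07). Slc6a9, a glycine importer, went from 4.36 and 4.005 to 0.53 and 0.606 and 0.033 and 0.084 RPKM at 72 and 120 h, falls by 1.72 and 2.29, but 44.7% of its exon length overlaps genes on the other strand and the strand setting of the counts is not known here. Slc7a7, the partner of Slc3a2 that releases cationic amino acids, was lowest at 72 h, with 14.8 and 14.4 RPKM in untreated cells, 13.6 and 13.9 at 24 h, 10.9 and 13.5 at 40 h, 1.17 and 1.15 at 72 h and 3.13 and 3.07 at 120 h. It fell by 2.85 at 72 h and 1.93 at 120 h, and it was higher at 120 h than at 72 h by 0.92 (SE 0.10, adjusted p = 4.99e-05).

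The amino acid carriers with the highest rises at 120 h were Slc7a8, Slc43a2, Slc6a6 and Slc6a12. Slc7a8, a second light chain of Slc3a2 for neutral amino acids (chr14:54722209-54781946, minus strand), held 1.06 and 1.23 RPKM in untreated cells, 1.26 and 1.04 at 24 h, 1.68 and 1.23 at 40 h, 4.17 and 4.05 at 72 h and 14.6 and 14.7 at 120 h. The groups at 72 h and 120 h stand above every earlier library, with rises by 1.25 and 2.87 (SE 0.11, adjusted p = 1.38e-07). Slc43a2, a facilitator for leucine and phenylalanine, went from 5.03 and 5.38 to 23.5 and 27.4 RPKM, a rise by 2.09. Slc6a6, the taurine importer, went from 25.01 and 24.5 to 70.2 and 78.7 after 22.4 and 23.2 at 72 h, a rise by 1.55. Slc6a12, which imports betaine and GABA (chr6:121343076-121365775, plus strand), was lowest at 72 h and highest at 120 h. It held 3.58 and 3.04 RPKM in untreated cells, 3.37 and 3.05 at 24 h, 2.91 and 2.93 at 40 h, 0.581 and 0.717 at 72 h and 10.2 and 12.8 at 120 h. It fell by 1.38 at 72 h and rose by 1.53 at 120 h, and the difference of 120 h from 72 h was 2.91 (SE 0.12, adjusted p = 5.51e-07). Its neighbour Slc6a13, a GABA carrier 5342 bases away, was at 7.87 and 8.101 in untreated cells, 4.54 and 5.04 at 72 h and 7.502 and 7.33 at 120 h.

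Of the 24 carriers of organic anions, cations, peptides and fatty acids, 12 were higher and 11 lower at 120 h (50% and 45.8%, where all genes gave 27.5% and 52.7%), with a median of 0.15 (0.56 after median-of-ratios scaling). Slc15a2 and Slc22a20, which reached the minimum only through the 120 h group, are among the 24. At 72 h 8 were higher and 6 lower (33.3% and 25.0%, where all genes gave 21.6% and 22.3%). Slc16a1, a surface carrier of lactate and pyruvate whose promoter is printed above (chr3:104638668-104658462, plus strand), held 22.8 and 22.5 RPKM in untreated cells, 25.2 and 25.04 at 24 h, 32.7 and 30.8 at 40 h, 41.7 and 37.8 at 72 h and 4.44 and 1.98 at 120 h. The values at 40 h and 72 h are above the untreated ones and those at 120 h below all others. Its rise at 72 h, 0.79 (SE 0.23, adjusted p = 0.0244), was lost without either untreated or either 72 h replicate, while its fall at 120 h was by 2.55 (SE 0.23, adjusted p = 1.5e-05). Slc16a3, a lactate exporter of glycolytic cells, held 53.9 and 55.5 RPKM in untreated cells and 44.7 and 39.7 at 120 h. Its value of -0.37 (SE 0.10, adjusted p = 0.00693) turned to 0.07 after median-of-ratios scaling. Their chaperones in the membrane, which belong to a list of 52 transport partners, differed: Bsg went from 289.6 and 315 RPKM to 114 and 87.7 (-1.58 on the log2 scale) and Emb from 199.8 and 213 to 444 and 415 at 72 h and 357 and 351 at 120 h (0.78).

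Slc15a3, which moves histidine and small peptides out of lysosomes (chr19:10839727-10859362, plus strand), had the largest swing between 72 h and 120 h, with 12.2 and 11.3 RPKM in untreated cells, 11.9 and 9.904 at 24 h, 8.39 and 8.097 at 40 h, 2.51 and 4.21 at 72 h and 66.8 and 107 at 120 h. The 72 h libraries are the lowest and the 120 h libraries the highest, and neither group overlaps another. It fell by 1.58 (SE 0.24, adjusted p = 0.00109) at 72 h and rose by 2.74 (SE 0.24, adjusted p = 1.22e-05) at 120 h. Its relative Slc15a4, also of lysosomes, went from 12.02 and 11.97 to 14.1 and 18.3 RPKM. The rise of Slc15a4 by 0.39 (SE 0.12, adjusted p = 0.016) was lost without either untreated replicate or 120 h replicate 2. Slc27a4, a fatty acid importer, held 4.07 and 4.54 RPKM in untreated cells, 4.02 and 4.14 at 24 h, 4.49 and 3.74 at 40 h, 8.33 and 7.47 at 72 h and 43.1 and 44.7 at 120 h, a rise by 0.75 at 72 h and 3.08 at 120 h (SE 0.10, adjusted p = 5.31e-08). Its relative Slc27a1 went from 4.49 and 3.88 RPKM in untreated cells to 1.53 and 2.06 at 40 h, 1.29 and 2.32 at 72 h and 6.62 and 6.25 at 120 h. It fell by 0.90 at 40 h, a call lost without either untreated, 24 h or 40 h replicate, with no filter and with a pseudocount of 0.1. It fell by 0.91 at 72 h, and its rise by 0.52 (SE 0.19, adjusted p = 0.0304) at 120 h was lost without either untreated or either 120 h replicate. Slc22a15, a carrier of zwitterions such as ergothioneine, rose by 2.49 (SE 0.16, adjusted p = 2.59e-06) from 0.646 and 0.617 to 6.74 and 9.88 RPKM. Slc22a20 was listed at 0 in all 4 untreated and 24 h libraries and at 1.49 and 2.48 RPKM at 120 h, a difference that the minimum had fixed.

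The sugar and sugar phosphate class, 13 members placed by family number, had the lowest class median at 120 h, -0.96 (-0.63 after median-of-ratios scaling). Of these members 4 were higher and 8 lower (30.8% and 61.5%, where all genes gave 27.5% and 52.7%). At 72 h 2 were higher and 8 lower (15.4% and 61.5%, where all genes gave 21.6% and 22.3%). Their summed RPKM was 165 and 169.5 in untreated cells, 85.9 and 89.2 at 72 h and 122 and 135 at 120 h. Slc37a2, a sugar phosphate exchanger known from macrophages (chr9:37227585-37255738, minus strand), had the highest rise of any member, with 0.182 and 0.139 RPKM in untreated cells, 0.211 and 0.229 at 24 h, 0.15 and 0.21 at 40 h, 0.853 and 1.74 at 72 h and 20.2 and 23.9 at 120 h. The first 6 libraries are at or below 0.229, and it rose by 0.96 at 72 h and 4.31 at 120 h (SE 0.17, adjusted p = 1.77e-07). Slc37a4, the glucose 6-phosphate carrier of the endoplasmic reticulum, went from 33.4 and 32.8 to 24.4 and 24.2 and 12.3 and 11.8 RPKM, with falls by 0.43 and 1.39. Slc2a6, a hexose carrier of lysosomes (chr2:27021363-27027998, minus strand), held 13.6 and 13.8 RPKM in untreated cells, 11.8 and 11.8 at 24 h, 9.54 and 9.27 at 40 h, 8.54 and 9.52 at 72 h and 36.01 and 47.4 at 120 h. It fell by 0.55 at 72 h and rose by 1.53 at 120 h (SE 0.12, adjusted p = 7.05e-06).

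**Figure D3:**
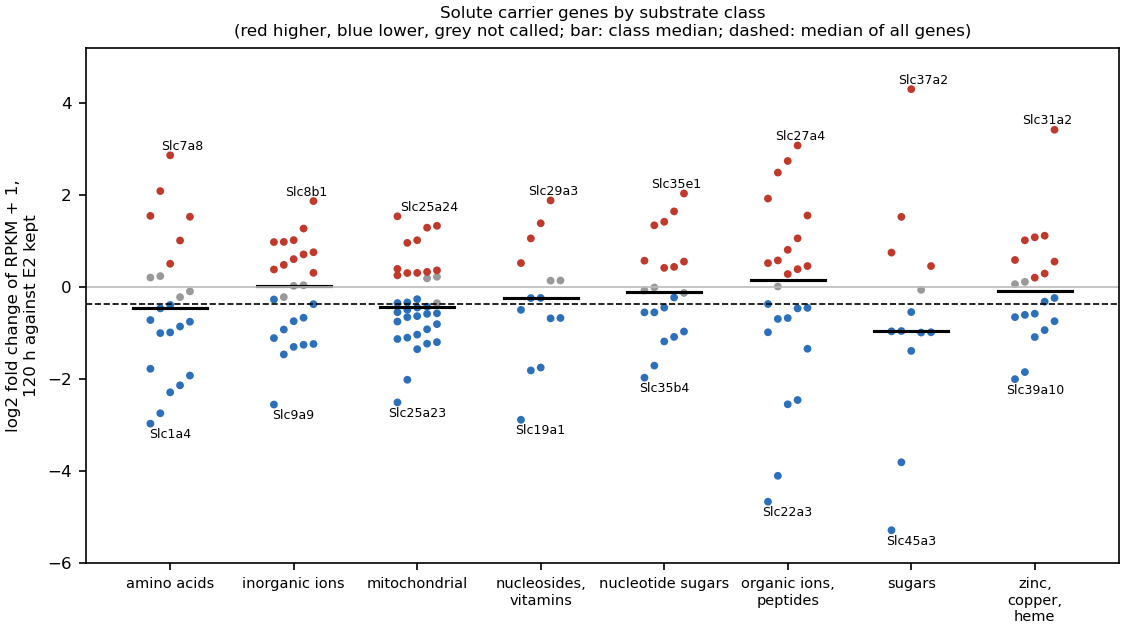
Log2 fold change of RPKM + 1 at 120 h against untreated cells for each member (points, coloured where called), by substrate class. Classes go by Slc family number, and class medians (bars) and the median of all genes (dashed, -0.36) are drawn. Sugar carriers span from -5.29 for Slc45a3 to 4.31 for Slc37a2, and their median of -0.96 is the lowest of the 8 classes.

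Of the 14 carriers of nucleosides, vitamins, choline and acetyl-CoA, 4 were higher and 8 lower at 120 h (28.6% and 57.1%, near the 27.5% and 52.7% of all genes), with a median of -0.24 (0.14 after median-of-ratios scaling). At 72 h 6 were higher and 2 lower (42.9% and 14.3%, where all genes gave 21.6% and 22.3%). Slc19a1, the reduced folate carrier (chr10:77032241-77061002, plus strand), held 34.5 and 37.2 RPKM in untreated cells, 36.5 and 37.4 at 24 h, 40.7 and 41.7 at 40 h, 37.1 and 35.9 at 72 h and 5.64 and 2.73 at 120 h. The first 8 libraries lie between 34.5 and 41.7 and the 120 h libraries far below, a fall by 2.89 (SE 0.22, adjusted p = 5.74e-06). The equilibrative nucleoside carriers of the surface fell too. Slc29a1 went from 53.9 and 53.97 to 36.5 and 35.6 and 16.9 and 13.8 RPKM at 72 and 120 h, falls by 0.57 and 1.75, and Slc29a2 from 5.09 and 4.81 to 0.788 and 0.6, a fall by 1.81. Slc29a3, the nucleoside carrier of lysosomes, held 3.73 and 3.82 RPKM in untreated cells, 3.57 and 3.41 at 24 h, 3.86 and 4.22 at 40 h, 7.86 and 8.19 at 72 h and 16.1 and 17.3 at 120 h. It rose by 0.92 at 72 h and 1.89 at 120 h (SE 0.08, adjusted p = 2.27e-07).

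Of the 20 zinc, copper and heme carriers, 8 were higher and 10 lower at 120 h (40% and 50%, where all genes gave 27.5% and 52.7%), with a median of -0.09 (0.32 after median-of-ratios scaling). Slc39a4, which reached the minimum only through the 120 h group, is among the 20. At 72 h 9 were higher and 5 lower (45% and 25%, where all genes gave 21.6% and 22.3%). Slc31a2, a copper carrier of endosomes and lysosomes (chr4:62262562-62298411, plus strand), held 1.75 and 1.98 RPKM in untreated cells, 1.56 and 1.63 at 24 h, 1.67 and 1.64 at 40 h, 3.11 and 3.97 at 72 h and 26.4 and 33.6 at 120 h. Both 72 h libraries exceed every earlier one and both 120 h libraries exceed those, with rises by 0.66 and 3.42 (SE 0.13, adjusted p = 1.53e-07). Slc31a1, the copper importer of the surface, was between 15.6 and 18.9 RPKM in all 10 libraries. Its value at 120 h was 0.11 (SE 0.08, adjusted p = 0.224), and 0.53 with a call after median-of-ratios scaling. Slc39a10, a zinc importer, held 13.7 and 13.8 RPKM in untreated cells, 13.6 and 14.1 at 24 h, 13.04 and 13.2 at 40 h, 8.21 and 8.303 at 72 h and 2.83 and 2.53 at 120 h, and fell by 0.67 and 2.00 (SE 0.07, adjusted p = 1.05e-07). Slc30a1, which exports zinc, rose by 0.48 and 1.12, from 1.199 and 1.29 RPKM to 3.58 and 4.17 at 120 h. The metallothioneins, which bind zinc and copper and stand among the transport partners, fell: Mt2 went from 161 and 181 to 8.15 and 5.08 RPKM (-4.53) and the value of Mt1 was -2.24. Slc39a1 and Slc39a7, a surface and a secretory pathway importer, share 27.7% and 83.3% of their 31-base windows with Slc39a1-ps and Gm20427, and are uncertain as single genes.

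The 25 members of the ion class, scaffolds included, had 11 higher and 11 lower at 120 h (44.0% and 44.0%, where all genes gave 27.5% and 52.7%), with a median of 0.03 (0.33 after median-of-ratios scaling). At 72 h 8 were higher and 8 lower (32.0% each, where all genes gave 21.6% and 22.3%). Their summed RPKM was 191 to 230.3 in the first 8 libraries and 253 and 312 at 120 h. Slc8b1, which lets calcium out of mitochondria in exchange for sodium (chr5:120511168-120534024, plus strand), held 14.7 and 16.3 RPKM in untreated cells, 14.5 and 14.7 at 24 h, 17.8 and 17.1 at 40 h, 39.5 and 50.5 at 72 h and 47.8 and 73.8 at 120 h. The 72 h and 120 h libraries are above all others but overlap each other, with rises by 1.47 (SE 0.19, adjusted p = 0.00049) and 1.87 (SE 0.19, adjusted p = 3.18e-05). Slc20a2, a phosphate importer, fell by 1.47 from 9.29 and 8.95 to 3.005 and 2.35 RPKM. Its relative Slc20a1 went from 9.82 and 9.55 to 12.7 and 13.9 at 72 h and 8.21 and 7.53 at 120 h. The rise of Slc20a1 at 72 h was by 0.42, while the value at 120 h, -0.27 (SE 0.09, adjusted p = 0.0191), turned to 0.13 after median-of-ratios scaling and was lost without either untreated replicate or 120 h replicate 2. Slc24a3, a sodium and calcium exchanger, was highest at 72 h, with 3.77 and 4.17 RPKM beside 1.47 and 1.98 in untreated cells and 2.28 and 1.37 at 120 h, a rise by 0.87 (SE 0.18, adjusted p = 0.00536).

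Mitochondrial carriers were the largest class by level, with summed RPKM of 1249.9 to 1451 in the first 8 libraries and 862 and 716 at 120 h. Of 36 members 11 were higher and 22 lower at 120 h (30.6% and 61.1%, where all genes gave 27.5% and 52.7%), with a median of -0.44 (-0.10 after median-of-ratios scaling). At 72 h 10 were higher and 4 lower (27.8% and 11.1%, where all genes gave 21.6% and 22.3%). The abundant carriers of nucleotides and phosphate were among the lower ones. Slc25a5, an ADP and ATP exchanger with the highest mean RPKM of any member (411), held 417 and 376 RPKM in untreated cells, 438 and 454 at 24 h, 542 and 449 at 40 h, 576 and 469.6 at 72 h and 234 and 159 at 120 h, a fall by 1.03 (SE 0.20, adjusted p = 0.00137). It shares 67.1% of its 31-base windows with other genes, most with Gm5560, and is uncertain as a single gene. Slc25a4, a second ADP and ATP exchanger, went from 58.7 and 53.01 to 28.7 and 19.6 RPKM and the phosphate carrier Slc25a3 from 293 and 276 to 149.9 and 112, falls by 1.20 and 1.13. Slc25a1, the citrate carrier whose promoter is printed above (chr16:17925223-17928219, minus strand), held 75.7 and 80.1 RPKM in untreated cells, 78.1 and 76.8 at 24 h, 69.7 and 70.3 at 40 h, 52.04 and 50.03 at 72 h and 21.9 and 15.6 at 120 h. It fell by 2.02 at 120 h (SE 0.13, adjusted p = 2.85e-06), and its call at 72 h, -0.60 (SE 0.13, adjusted p = 0.00792), was lost without untreated replicate 2.

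Among carriers tied to iron and heme in mitochondria, Slc25a37 and Slc25a38 rose, while Slc25a28, the other mitoferrin, was not called (17.8 and 19.1 RPKM in untreated cells and 11.5 and 17.6 at 120 h). Slc25a37, the iron importer mitoferrin, held 8.74 and 9.88 RPKM in untreated cells, 9.62 and 10.7 at 24 h, 10.9 and 12.1 at 40 h, 19.5 and 29.8 at 72 h and 14.97 and 26.3 at 120 h. Every 72 h and 120 h library is above the earlier ones and the pair of groups overlap, with rises by 1.29 and 1.02 (SE 0.26, adjusted p = 0.00596). Slc25a38, a glycine carrier needed for heme, rose by 0.96 and 1.33 from 2.35 and 2.19 to 5.67 and 9.19 RPKM at 120 h. No erythroid marker of the 5 listed reached the minimum, with a summed level of 1.06 and 0.282 RPKM at 120 h. Slc25a24, a carrier of ATP-Mg and phosphate like Slc25a23 (chr3:109123149-109168457, plus strand), held 13.4 and 12.8 RPKM in untreated cells, 13.8 and 13.1 at 24 h, 12.5 and 13.1 at 40 h, 9.93 and 9.19 at 72 h and 41.5 and 38.6 at 120 h. It fell by 0.42 at 72 h and rose by 1.54 (SE 0.08, adjusted p = 5.9e-07) at 120 h, where Slc25a23 had fallen by 2.51.

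Of the 20 nucleotide sugar carriers and their relatives, 8 were higher and 9 lower at 120 h (40% and 45%, where all genes gave 27.5% and 52.7%), with a median of -0.10 (0.24 after median-of-ratios scaling). At 72 h 7 were higher and 2 lower (35% and 10%, where all genes gave 21.6% and 22.3%). Slc35b4, which brings UDP-xylose and UDP-N-acetylglucosamine into the Golgi (chr6:34153380-34177111, minus strand), held 36.8 and 36.3 RPKM in untreated cells, 35.7 and 36.5 at 24 h, 33.9 and 35.3 at 40 h, 15.5 and 14.6 at 72 h and 8.79 and 8.38 at 120 h. It fell by 1.23 and 1.97 (SE 0.07, adjusted p = 8e-08) and its groups at 72 h and 120 h do not overlap. Slc35a1, the carrier of CMP-sialic acid, fell by 0.63 and 1.18, from 14.2 and 13.4 to 5.67 and 5.403 RPKM. Slc35e1, a family member of unknown substrate, held 9.28 and 9.91 RPKM in untreated cells, 9.38 and 10.2 at 24 h, 10.3 and 10.4 at 40 h, 18.97 and 18.9 at 72 h and 41.7 and 43.2 at 120 h, with rises by 0.91 and 2.04 (SE 0.07, adjusted p = 8.96e-08). Slc35d2, a Golgi carrier of UDP-N-acetylglucosamine, rose at 120 h by 1.65, from 1.81 and 1.56 to 6.77 and 8.09.

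**Figure D4:**
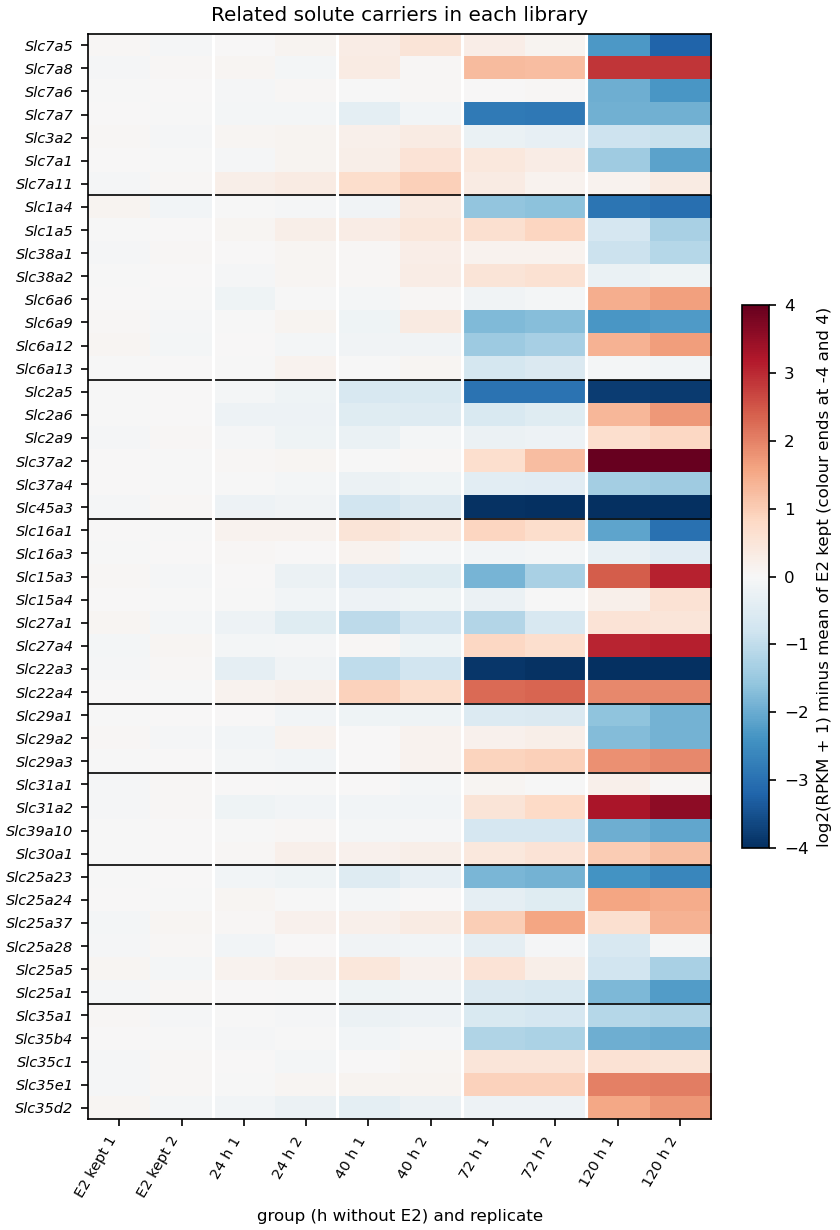
Log2 of RPKM + 1 in each of the 10 libraries (columns, by group and replicate) minus the mean of untreated cells (colour, red higher and blue lower), for members with a relative of like substrate (rows). Relatives part at 120 h, as Slc29a3 (group value 1.89) beside Slc29a1 (-1.75), and Slc25a24 (1.54) beside Slc25a23 (-2.51).

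The other genes of transport came from a list of 52 carriers, chaperones, pumps and partners whose symbol is not Slc and a family number. Of these 46 were tested. At 120 h 22 were higher and 15 lower (all genes 27.5% and 52.7%), at 72 h 12 and 13 (all genes 21.6% and 22.3%), and at 40 h 0 and 0 (all genes 0.93% and 3.35%). Cln3, a lysosomal membrane protein, went from 6.09 and 5.64 to 29.99 and 51.6 RPKM, 2.56 on the log2 scale. Atp2b1, which pumps calcium out of the cell, rose by 2.19, and Aqp9, a channel for glycerol and water, by 1.35. The progenitor, neutrophil and monocyte marker lists, with the sums given at the start, moved with the 72 h and 120 h groups as well, and the monocyte and lymphoid lists also with the 40 h group. Their part in the changes of the carriers was not tested.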

How the data were processed

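RNA of 5 groups of 2 libraries was sequenced after TruSeq preparation. The authors deposited 1 table of RPKM per library and transcript. The submitters' processing notes name STAR and GRCm38. How the authors counted, on which annotation release, with which strand setting and filter: not given in the sources used here. Of 79535 transcripts listed, 77720 (97.7%) matched GENCODE M21 once versions were dropped, and 1 principal transcript was kept per gene. Values came out as whole reads within 0.02 reads for 99.6% or more of those tested, which gave each library's denominator within the range searched.

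The 13004 genes that reached an RPKM of 1 in 2 or more libraries entered 1 limma fit (limma 3.58.1, R 4.3.3) of all 10 libraries, with 5 residual degrees of freedom, on log2(RPKM + 1), a scale that understates the changes of low genes. P-values were adjusted over all genes (Benjamini-Hochberg) and called under 0.05. The fit held 1 spread per gene for all 5 groups, so a gene's SE was the same in every comparison. It is not the spread of the 2 groups compared, and replicates differed most at 120 h. Figures and tables were made in Python 3.11.15.

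The members, classes and lists were chosen with earlier results of these data known. Genes named were those of known roles, the most abundant, those with the highest and lowest log2 fold changes per class at 120 h or per other comparison, those at the threshold, and the extreme transport partners. Slc18a1, Slc22a21, Slc29a2, Slc2a7, Slc30a1 and Slc6a9 were added as relatives or neighbours after their values were seen. Alternatives were other pseudocounts, filters, scalings, limma voom on recovered reads, another transcript, a replicate block, only the groups compared, array weights, and leaving out each replicate. A fit without the 120 h group was chosen after seeing the data.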

Additional observations from a re-analysis of the deposited data

Results flagged for a closer look

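In 23 members the calls at 72 h and at 120 h against the same untreated libraries had opposite signs (limma). Of them 10 are among the genes chosen by the rule for names. The same count over all genes was not taken, so 23 cannot be read as many or few. The opposite signs chose these members and fix the direction of their difference between 120 h and 72 h, which is given as a description. Lower at 72 h and higher at 120 h were Slc15a3 (difference 4.32 on the log2 scale), Slc6a12 (2.91), Slc2a6 (2.08), Slc25a24 (1.96), Slc27a1 (1.43) and Slc39a1 (0.85). Higher at 72 h and lower at 120 h were Slc16a1 (-3.34), Slc1a5 (-1.74), Slc39a7 (-0.84) and Slc20a1 (-0.69). After median-of-ratios scaling the 120 h value of Slc39a7 went from -0.58 to -0.14 and that of Slc20a1 from -0.27 to 0.13, neither with a call, so these pairs of opposite calls were lost. The rise at 72 h was lost in Slc16a1 without either untreated or either 72 h replicate, in Slc1a5 without either untreated replicate or 72 h replicate 2, and in Slc39a7 (0.26) on leaving out any single untreated, 24 h, 40 h or 72 h replicate. The rise of Slc39a1 at 120 h (0.21) was lost on leaving out any single replicate other than 120 h replicate 1, and that of Slc27a1 without either untreated or either 120 h replicate. For Slc15a3, Slc6a12, Slc2a6 and Slc25a24 both calls held under every alternative run. The 72 h group had E2 again for 48 h when RNA was taken and the label of the 120 h group names no return of E2, so length of withdrawal and return of E2 cannot be told apart.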

How the results depend on the processing

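The 156 members called at 120 h against untreated cells were 118 to 158 over the alternatives, the 141 at 120 h against 72 h were 109 to 146, and the 99 at 72 h were 75 to 119. The 10 calls at 40 h became 32 when only the 2 groups were fitted, 46 with array weights and 35 without the 120 h group, and 0 to 35 when 1 replicate was left out. The 1 call at 40 h against 24 h became 0 with no filter, with median-of-ratios or quantile scaling, with limma voom and with the coding transcript of highest mean RPKM, 2 with a minimum RPKM of 5, 4 with only the 2 groups, 10 with array weights, 8 without the 120 h group, and 0 to 8 when 1 replicate was left out. The 78 calls at 72 h against 40 h were 42 to 99 when 1 replicate was left out. Median-of-ratios scaling turned the log2 fold change at 120 h of Slc16a3 to 0.066, of Slc20a1 to 0.13 and of Slc38a2 to 0.22. Over all 13004 genes, the 121 higher and 436 lower at 40 h became 729 and 1259 when only the 2 groups were fitted. They became 1051 and 1808 with array weights, and 611 and 1186 without the 120 h group. For 40 h against 24 h, 22 and 15 became 75 and 85, 166 and 327, and 84 and 154 in the same fits. The causes were not tested.

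With the replicate number as a block, the calls were 158 at 120 h, 104 at 72 h, 12 at 40 h and 0 at 24 h against untreated cells, 145 at 120 h against 72 h, 85 at 72 h against 40 h and 1 at 40 h against 24 h. The call at 40 h against 24 h was then Slc22a3 (limma adjusted p = 0.0487), chosen after its value was seen, in place of Slc22a4 (0.0523). Among the named genes the block also ended the call of Slc25a23 at 40 h (0.0509) and added calls for Slc38a2 (0.0301) and Slc25a28 (0.0362) at 120 h and for Slc8b1 at 120 h against 72 h (0.0437). The correlation of same-numbered replicates ran from 0.034 to 0.639 over 10 pairs of groups, and the labels do not say that a number marks a shared culture, so the numbers are not taken as a pairing.

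Each group had 2 libraries, and the number of calls at 40 h moved from 0 to 46 over the fits run. Reads shared with near-identical copies, or with genes on the other strand, were not assigned here. Beside Slc6a9, named genes whose exon length overlaps genes on the other strand include Slc20a1 (16.4%), Slc15a4 (15.6%), Slc25a33 (14.9%), Slc29a1 (12.4%) and Slc7a7 (10.9%).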
